A study of Drosophila melanogaster with 3 samples.

Results

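The transcripts described here belong to the Notch signalling pathway of the fly egg chamber, measured in ovaries of Drosophila melanogaster. The list held 10 genes, N, Dl, fng, neur, Su(H), kuz, mam, H, mib1 and numb, and a gene was taken when at least 1 array feature (1 printed probe) carried its symbol and no other. By that rule 5 genes entered, neur, fng, mam, H and numb, with 13 features between them, out of 10805 genes on 22575 features. The other 5 listed genes, among them the receptor gene N and the ligand gene Dl, were not analysed here.

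RNA of ovaries from flies about 7 days old was compared on 3 arrays with 2 colours. In the mutant ovaries, labelled with Cy3, the germ line descended from transplanted sva53 pole cells, the embryonic precursors of the germ line. These were taken from embryos of germline clones homozygous for sva53[M1] that had been made with the FLP/FRT/DFS system. In the control ovaries, labelled with Cy5, it descended from transplanted sva53/+ pole cells. Both kinds of pole cells were placed in host embryos from osk-homozygous females, so follicle cells and other somatic cells of every ovary were host cells. Each array held 1 mutant pool of 2 pairs of ovaries from an independent experiment (n = 3), and the control was 1 RNA from 3 pairs of ovaries, hybridised to every array. The spread therefore covers the mutant pools and the arrays but not the control.

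In Notch signalling a ligand on 1 cell activates the Notch receptor on its neighbour, and the receptor's inner part then enters the nucleus and turns on target genes with the DNA-binding protein Su(H). In the egg chamber the ligand Delta of the germ line signals to Notch on the follicle cells that surround it. This signal sets aside polar cells and later ends the mitotic divisions of follicle cells, which then enter endocycles. For this germline signal the ligand-sending cells were thus of mutant or control origin, and the receiving follicle cells were host cells. In RNA of whole ovaries, fewer cells of a type and less RNA per cell cannot be told apart.

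Values are given as log2 of mutant over control. Which dye formed the numerator of the deposited ratio is not stated, and it was read as Cy5 over Cy3, the form in which Agilent's software writes its log ratio, and turned. The direction rests on that convention alone, and with the other numerator every sign below turns. A gene is called higher or lower when limma's test of the ratio against 0 gave a Benjamini-Hochberg adjusted p under 0.05 over all 15415 rows tested, which were the 10805 genes, 4284 features without annotation and 326 annotated with several genes or no symbol. Over all features the log2 ratios had SDs of 0.49, 0.35 and 0.34 on arrays 1, 2 and 3. The table holds ratios only, so levels of ovary markers could not be checked.

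Of the 5 Notch pathway genes, neur was higher in the mutant, fng was lower, and mam, H and numb were not called. By the same rule 13.4% of the 10805 genes were called, 6.36% higher and 7.04% lower. Both changes were small, at 1.36-fold for neur and 1.23-fold for fng. The median over the 5 genes was -0.04, beside -0.003 over all genes. The calls needed all 3 arrays: with any 1 array left out, limma called 0 of the 15415 rows, while between 3277 and 4710 had an unadjusted p under 0.05.

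On the side of the signal, neur encodes the E3 ubiquitin ligase Neuralized, which marks Delta for endocytosis in the ligand-sending cell. The log2 ratio of neur read 0.42, 0.35 and 0.56 on arrays 1, 2 and 3. All 3 mutant pools lay above the control RNA, with array 3 highest. The mean was 0.45 ± 0.11 (SD, n = 3), with a 95% interval from 0.27 to 0.62 and an adjusted p of 0.0379 with limma. This placed neur at rank 534 of 10805 genes from the highest ratio, or at rank 10272 with the sign turned. Its 2 features pointed the same way and each was called on its own, at 0.25 ± 0.03 and 0.64 ± 0.23 (SD, n = 3; adjusted p 0.0485 and 0.0413 with limma). The higher feature read 0.55, 0.47 and 0.90 on arrays 1, 2 and 3, so it carried the high value of array 3, and the lower feature read 0.29, 0.24 and 0.23. The size of the change thus differed between features while its direction did not.

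On the side of the receptor, fng encodes Fringe, a glycosyltransferase that adds N-acetylglucosamine to fucose on Notch and so favours its response to Delta over Serrate. In the egg chamber it acts in the setting aside of polar cells. The log2 ratio of fng read -0.28, -0.35 and -0.27 on arrays 1, 2 and 3. All 3 pools were below the control RNA and lay close together. The mean was -0.30 ± 0.04 (SD, n = 3), with a 95% interval from -0.44 to -0.17 and an adjusted p of 0.0408 with limma. The 2 features shared the sign but not the size. The first read -0.50, -0.53 and -0.41 on arrays 1, 2 and 3 and was called (mean -0.48, adjusted p 0.0333 with limma). The second read -0.06, -0.17 and -0.14 and was not (mean -0.12, adjusted p 0.179 with limma). It had the smaller SD of the pair, and with it in place of the mean fng was not called.

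**Figure D1:**
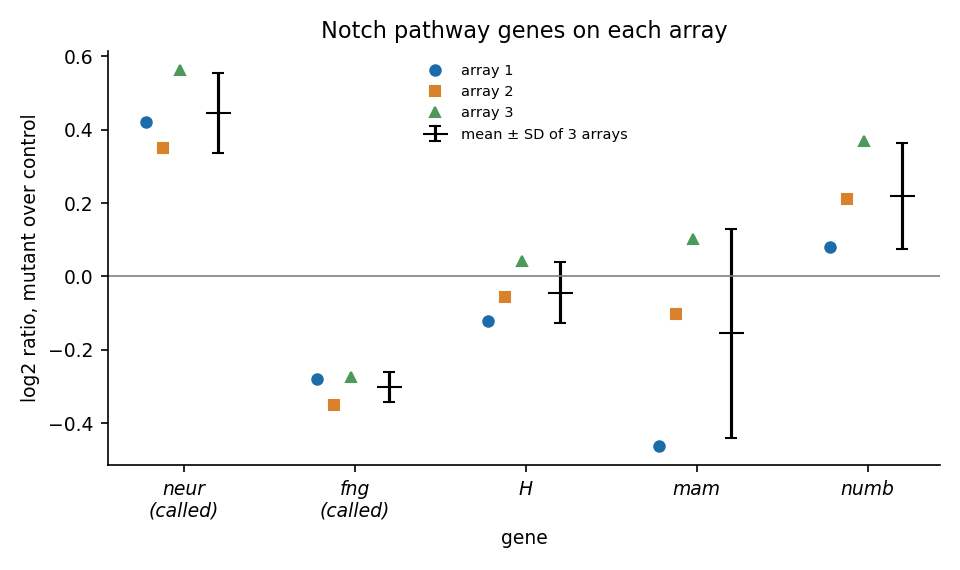
Log2 ratio of mutant over control (y axis) of the 5 Notch pathway genes (x axis), 1 symbol for each of the 3 arrays, with the mean ± SD of the arrays as a bar beside them. All points of neur lie above 0 and all of fng below, mam and H cross 0, and array 1 is lowest for mam, H and numb.

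Numb, an inhibitor of Notch that is passed to 1 daughter at asymmetric cell divisions, is encoded by numb. The log2 ratio of numb read 0.08, 0.21 and 0.37 on arrays 1, 2 and 3. All 3 values were above 0, but they were spread widely and numb was not called (mean 0.22 ± 0.14, SD, n = 3; 95% interval 0.01 to 0.43; adjusted p 0.129 with limma). Of its 3 features 1 was called on its own, at 0.31 ± 0.03 (adjusted p 0.0384 with limma). That feature read 0.32, 0.33 and 0.28 on arrays 1, 2 and 3. The other features had means of 0.16 and 0.19, and 1 of them read -0.13 on array 1. With the feature of smallest SD, or with arrays weighted by their quality, numb was called higher (0.31 and 0.22, adjusted p 0.0281 and 0.036 with limma), as were 11.1% and 18.2% of all genes under those settings.

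Of the nuclear genes, mam encodes Mastermind, the coactivator that joins Su(H) and the inner part of Notch on target genes. Its log2 ratio read -0.46, -0.10 and 0.10 on arrays 1, 2 and 3. The pools lay on both sides of the control RNA, with array 1 low, and mam was not called (mean -0.16 ± 0.29, SD, n = 3; 95% interval -0.51 to 0.20; adjusted p 0.432 with limma). Without array 1 its mean was -0.0011. Each of its 3 features was lowest on array 1, at -0.42, -0.76 and -0.21, and none was called. Array 1 also held the lowest values of eggshell genes, which late follicle cells make. The 7 measured of 18 listed eggshell markers lay between -4.73 and -1.73 on array 1, with a median of -2.87, and had medians of -0.01 and -0.03 on arrays 2 and 3. The part of that difference in the values of mam was not tested.

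H encodes Hairless, the corepressor that binds Su(H) in the absence of the Notch signal. The gene's mean was close to 0, at -0.04 ± 0.08 (SD, n = 3), with -0.12, -0.06 and 0.04 on arrays 1, 2 and 3, a 95% interval from -0.20 to 0.11 and an adjusted p of 0.609 with limma. This mean joins features that went opposite ways. The first feature read -0.66, -0.57 and -0.42 on arrays 1, 2 and 3 and was called lower on its own (mean -0.55, adjusted p 0.0343 with limma). The third read 0.24, 0.25 and 0.31 and was called higher (mean 0.27, adjusted p 0.047 with limma). The second lay at 0.06, 0.15 and 0.24 and was not called (mean 0.15, adjusted p 0.16 with limma). The distance of 0.81 between the lowest and the highest feature mean of H was reached or passed by 6.35% of the 567 genes with 3 features, whose median distance was 0.30. No direction can therefore be given for H from these data. Whether the features detect different transcripts is not given in the sources used here.

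**Figure D2:**
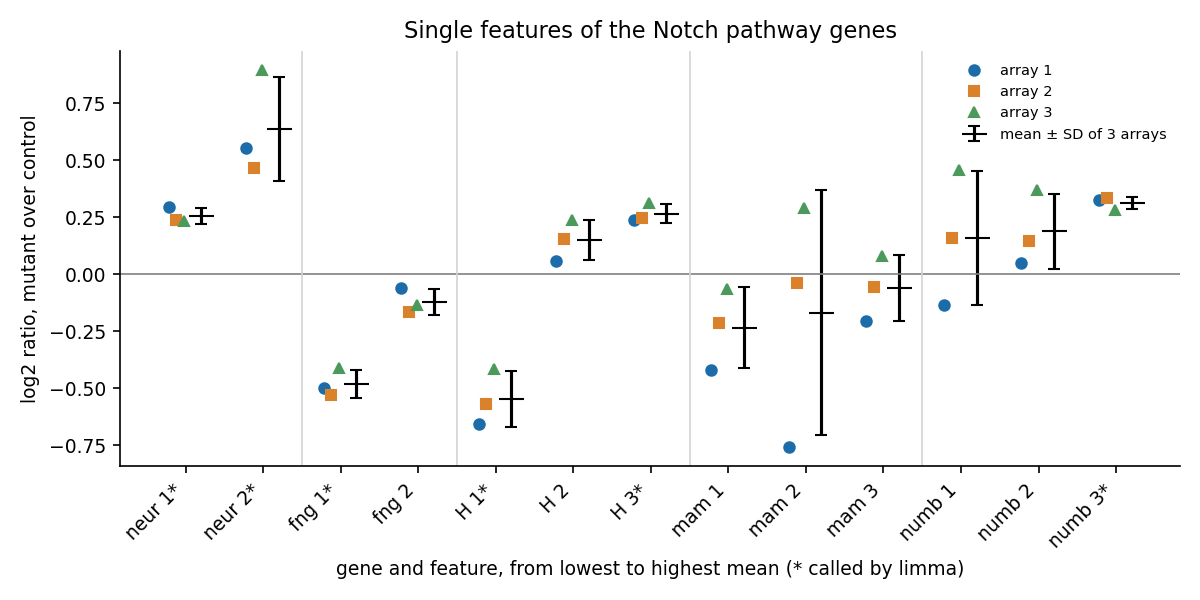
Log2 ratio of mutant over control (y axis) of each of the 13 features of the 5 genes (x axis, numbered within a gene from the lowest mean), 1 symbol for each array and the mean ± SD of 3 arrays beside them. The features of neur and of fng share a sign, while H has 1 feature near -0.55 and the other two above 0.

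Tested as single features, 6 of the 13 were called, 4 higher and 2 lower, where 15.3% of all 17329 features of 1 gene were called, 8.05% higher and 7.24% lower. In 4 of the 5 genes the feature means shared a sign, H being the exception. In neur alone of the 5 genes was every feature called. By grid positions computed from the feature numbers, the features lay at scattered places, and none held an exact 0. The surrounding features, within a square 5 features wide, had median ratios that averaged between -0.08 and 0.12 over the 3 arrays. The lowest feature of H had surroundings at -0.05 and the highest had surroundings at 0.08. Single arrays differed more. Around the highest feature of H the medians were 0.22, 0.06 and -0.03 on arrays 1, 2 and 3, beside its own 0.24, 0.25 and 0.31. Around the lower feature of neur they were 0.20, -0.03 and -0.07, beside its own 0.29, 0.24 and 0.23.

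By Euclidean distance of the log2 ratios over the 3 arrays, the genes nearest to neur were CG14106 (0.43, 0.33 and 0.53 on arrays 1, 2 and 3) and EloA (0.42, 0.38 and 0.54). Those nearest to fng were CG3337 (-0.28, -0.33 and -0.27) and CG2811 (-0.29, -0.33 and -0.30). The distances lay between 0.02 and 0.04, and 3 arrays give many genes near any pattern.

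Other genes of the pathway were grouped by role. Among 6 measured genes of receptor and ligand processing, 1 was lower, 0 were higher and 5 were not called (list median 0.03). Of all 10805 genes, 7.04% were lower and 6.36% higher. The lower gene was Tace, which encodes a membrane metalloprotease of the ADAM family, at -0.35, -0.42 and -0.42 on arrays 1, 2 and 3. All 3 pools were close together below the control (mean -0.40 ± 0.04, SD, n = 3; adjusted p 0.0346 with limma), though its 3 features ranged from -0.58 to -0.12. Of these features 1 was called lower on its own, and the one at -0.12 held an exact 0 on array 1. With exact zeros set to missing the mean was -0.45, and Tace was still called lower. The gamma-secretase genes Psn and pen-2, whose products take part in the cut that frees the inner part of Notch, read 0.09 and 0.03 and were not called. O-fut1, for the enzyme that adds the fucose Fringe extends, read -0.67, -0.40 and 0.07 on arrays 1, 2 and 3 and was not called (mean -0.33, adjusted p 0.223 with limma).

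Of 16 measured genes of endocytosis and ubiquitination, limma called 0, and 5 had an unadjusted p under 0.05. Among all 10805 genes, 3873 had an unadjusted p under 0.05 with limma. With array weights 5 of the 16 were called higher, where 18.2% of all genes were, and with the feature of smallest SD 6 of the 16, where 11.1% of all genes were. Their median was 0.15, and 11 of the 16 means lay above 0. The smallest p-values were those of Hrs, for an endosomal sorting protein, at 0.43, 0.22 and 0.21 on arrays 1, 2 and 3, and dx, for the ubiquitin ligase Deltex, at 0.16, 0.30 and 0.43. Both were above the control in every pool without passing (means 0.29 and 0.30, adjusted p 0.0686 and 0.069 with limma). Hrs was called higher with scaled arrays, array weights and grid medians removed, where 8.79%, 18.2% and 6.69% of all genes were. With its feature of smallest SD Hrs read 0.12 and was not called. dx was called higher with array weights and with its feature of smallest SD. In each of Hrs and dx 1 of the 2 features was called higher on its own. The Delta-linked genes lqf, which encodes the endocytic adaptor epsin, and aux, which encodes auxilin, read 0.18 and 0.19 and were not called. mib2, a relative of the ligase gene mib1, read -0.06.

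Of 9 measured nuclear cofactor genes limma called 0, and 0 had an unadjusted p under 0.05, where 3873 of all 10805 genes had one. Means ran from -0.17 to 0.13 with a median of -0.01. The smallest p-values were those of Cdk8 (0.13, adjusted p 0.22 with limma), a kinase of the Mediator complex, and CtBP (-0.16, adjusted p 0.148 with limma), a corepressor recruited by Hairless. The corepressor gene gro read -0.01, with 3 features between -0.30 and 0.27.

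Among 14 measured genes of the Enhancer of split and Bearded groups and other bHLH targets, 1 was lower, 0 were higher and 13 were not called. By the same rule 7.04% of all genes were lower and 6.36% higher. The list median was 0.04. With array weights 3 of the 14 were called higher and 3 lower, where 18.2% of all genes were higher and 18.9% lower. E(spl)m3-HLH, for a bHLH repressor that Notch turns on in many tissues, read -0.92 on array 1, -0.51 on array 2 and -0.58 on array 3. All 3 pools were below the control RNA, with array 1 lowest (mean -0.67 ± 0.22, SD, n = 3; 1.59-fold; adjusted p 0.0386 with limma). Its 2 features read -0.88 and -0.45. The bHLH genes E(spl)m5-HLH (-0.25), E(spl)mbeta-HLH (-0.20) and E(spl)m7-HLH (-0.18) had means below 0 and were not called, and E(spl)mdelta-HLH read 0.05. Genes of the Bearded family, which encode inhibitors of Neuralized, had gene means between -0.03 (Ocho) and 0.22 (E(spl)m6-BFM) and were not called. The mean of E(spl)m2-BFM, 0.002, joined a feature at -0.39, called lower on its own, and one at 0.39. The latter read 1.22 on array 2 and held an exact 0 on array 1. The features of Tom read -0.11 and 0.34, and neither was called.

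**Figure D3:**
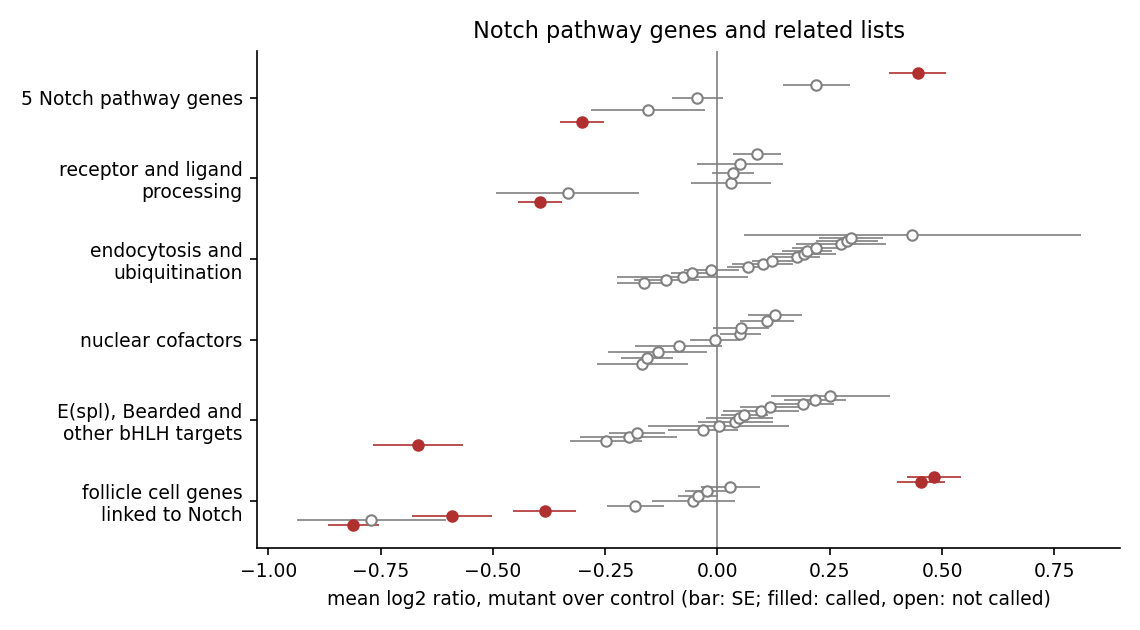
Mean log2 ratio of mutant over control (x axis) of each gene, with its standard error from limma as a bar, for the 5 Notch pathway genes and 5 lists of related genes (y axis). Filled points were called and open points were not. Calls fall in 4 of the 6 rows, and the follicle cell list holds 5 of them, 2 higher and 3 lower.

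Of 11 measured follicle cell genes linked to Notch signalling, 2 were higher, 3 were lower and 6 were not called, beside 13.4% called of all genes. The list was drawn up with earlier results of these data known, so its count is no independent evidence. The lower genes encode transcription factors. peb encodes Hindsight, which Notch turns on in follicle cells as they leave the mitotic cycle, and it read -0.88, -0.72 and -0.84 on arrays 1, 2 and 3. The pools lay close together, far below the control RNA (mean -0.81 ± 0.08, SD, n = 3; 1.75-fold; adjusted p 0.0299 with limma). Its 2 features read -0.86 and -0.76, and each was called on its own.

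The polar cell gene cas, for the zinc-finger protein Castor, read -0.68, -0.38 and -0.72 on arrays 1, 2 and 3 and was lower (mean -0.59 ± 0.18, SD, n = 3; adjusted p 0.0382 with limma). ct, for the homeodomain protein Cut, which Hindsight represses in follicle cells, read -0.47, -0.23 and -0.45 and was lower too (mean -0.38 ± 0.13, SD, n = 3; adjusted p 0.0469 with limma). Both rested on unequal features. Of the 2 features of cas, at -0.96 and -0.23, 1 was called lower on its own. Of the 4 features of ct, with means from -0.91 to 0.11, 0 were called on their own. With the feature of smallest SD, cas read -0.23 and ct read 0.11, and neither was called. eya, which is repressed in polar cells, read -1.21, -0.50 and -0.60 and was not called (mean -0.77 ± 0.39, SD, n = 3; adjusted p 0.0591 with limma). Array 1 was lowest for eya, as it was for the eggshell genes, peb and ct, though not for cas. The part of the low eggshell values of array 1 in these ratios was not tested.

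The genes that were higher encode cyclins. CycB, for a mitotic cyclin, read 0.50, 0.38 and 0.57 on arrays 1, 2 and 3, with all pools above the control (mean 0.48 ± 0.10, SD, n = 3; 1.40-fold; adjusted p 0.035 with limma). CycE, whose product drives entry into S phase in mitotic cycles and endocycles, read 0.45, 0.39 and 0.52 (mean 0.45 ± 0.07, SD, n = 3; adjusted p 0.0346 with limma). The germ line also uses these cyclins, so the ratio does not say in which cells they differed. Of the 4 features of CycE 1 read 0.05, and the others lay between 0.48 and 0.78. fzr, an activator of the anaphase-promoting complex that Notch turns on at the switch to endocycles, read -0.04, with features at -0.40 and 0.31 that were each called on their own. The polar cell ligand gene upd1 (-0.02), the border cell gene slbo (0.03), emc (-0.05) and br (-0.18) were not called. Of the 10 features of br, which encodes the zinc-finger protein Broad, 3 were called lower on their own and 0 higher, and their means ran from -0.80 to 0.26.

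**Figure D4:**
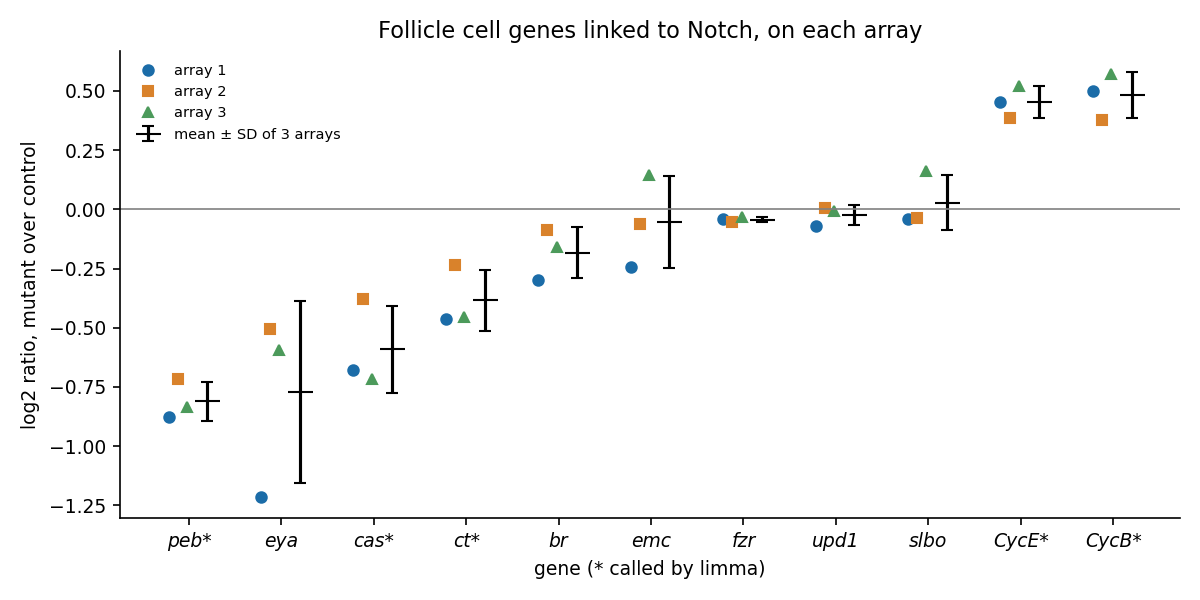
Log2 ratio of mutant over control (y axis) of the 11 follicle cell genes linked to Notch (x axis, ordered by mean), 1 symbol for each array and the mean ± SD of 3 arrays beside them. An asterisk marks the 5 called genes. The transcription factor genes peb, cas and ct lie below 0 on every array, as do eya, br and fzr, which were not called. The cyclin genes CycB and CycE lie above 0 on every array.

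Markers of cells that an ovary dissection holds or could hold were read on the same scale. Of 9 germline markers limma called 0, with 3 at an unadjusted p under 0.05, where 3873 of all 10805 genes had one. The means of these markers lay between -0.23 and 0.22. Of 10 fat body markers 3 were lower (Pepck1, Lsd-1 and Obp99b), beside 7.04% of all genes. Of the 10 means 8 lay below 0, with a list median of -0.43, and Fbp2 (0.50) and Lsp2 (0.39) lay above. Fbp2 held an exact 0 on array 1, and Lsp2 read -0.28, 1.37 and 0.08 on arrays 1, 2 and 3. Of 8 hemocyte markers 2 were lower, again beside 7.04% of all genes. These were Col4a1 and vkg, which encode collagen chains also made by follicle cells. Of the 8 hemocyte means 4 lay above 0, up to 0.25 (NimC1), and 4 below, with a list median of -0.01. Of 9 muscle markers limma called 0, with 3 at an unadjusted p under 0.05 and a median of 0.20. Of 4 markers of neurons and sensory precursors, cells in which neur and numb are also used, limma called 0, with 1 (elav, -0.28) at an unadjusted p under 0.05. The others went both ways, with nSyb at 0.29, sens at -0.01 and brp at -0.06. The part of these cells in the ratios of the Notch pathway genes was not tested.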

How the data were processed

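For every feature of an array the authors deposited 1 log10 ratio between the dyes, made with Agilent Feature Extraction 7.1, per the submitters' processing notes. How background, dyes and filters were handled is not given in the sources used here. A log10 scale was inferred from a minimum of -2 and exact zeros among values of both signs, and the direction was taken from the software's convention of Cy5 over Cy3. Signs were turned and values converted to log2. Grid positions were computed from the feature numbers, read as 105 rows of 215 features. The 636 features at the edge of that grid, 0 of them annotated, were left out. Medians of the rest were 0 on each array. Platform annotation gave 17329 features 1 gene and 326 several or none, and 4284 others are unnamed here. By gene identifier 10801 of 10805 genes matched the RefSeq gene table. Features of 1 gene were averaged and tested against 0 with lmFit and eBayes of limma 3.58.1 (R 4.3.3, 2-sided), checked on simulated data. The simulated data held no error of the shared control RNA and no dye bias, so the check does not cover these. All arrays carried the mutant in Cy3, so dye bias does not cancel, and signal intensities were not used here. The number of arrays limits the precision.

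The genes and lists were chosen with earlier results of these data known. Named were all 5 measured genes, every called gene of a pathway list or else the 2 of smallest p, and the 2 genes nearest to each called one. Any further gene was picked with its values in view. Alternatives were centring, scaling, a robust prior, array weights, the feature of smallest SD, exact zeros set to missing, an adjusted p under 0.01, single features and leaving out each array. Removal of grid row and column medians was added after seeing the data.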

Additional observations from a re-analysis of the deposited data

How the results depend on the processing

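The calls of neur (higher) and fng (lower) held with centred arrays, scaled arrays, a robust prior, array weights, exact zeros removed and, chosen after seeing the data, grid row and column medians removed. When each gene was read from its feature of smallest SD, 3 members were higher (neur, H and numb) and 0 were lower, fng read -0.12 and was not called, H turned from -0.04 to 0.27 and ct to 0.11. That setting called 3418 of the 15415 rows tested (genes and features without a gene of their own), where 2135 were called with features averaged. Array weights called 5804 of them (37.7%) and 2 members as higher, with numb added. At an adjusted p under 0.01 limma called 0 rows and 0 members. An unadjusted p under 0.05 was held by 3 of the 5 members and by 3873 of all 10805 genes. Without any 1 array the counts of rows and of members called were all 0, and the adjusted p ranged from 0.0961 to 0.168 for neur (means 0.39 to 0.49) and from 0.101 to 0.22 for fng (means -0.31 to -0.28). Tested singly, 6 member features were called. Apart from the change of feature, the causes were not tested. Centring changed no value, since array medians were 0. No paired analysis was possible because the labels hold 1 group, compared with a single control RNA on every array. Without signal intensities, the distance of a feature from background is not known here.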
